A study of Yarrowia lipolytica with 12 samples.

Results

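Catalases split hydrogen peroxide into water and oxygen, and superoxide dismutases turn the superoxide radical into hydrogen peroxide, so the enzymes act one after the other in the removal of reactive oxygen. In yeasts a cytosolic and a peroxisomal catalase are commonly distinguished, and the peroxisomal enzyme handles the peroxide that fatty acid β-oxidation makes, a pathway for which *Y. lipolytica* is well known. SOD1 encodes the copper- and zinc-dependent superoxide dismutase, which in *Saccharomyces cerevisiae* is mostly cytosolic.

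The genes described here are 3 catalase genes, YALI0_E34265g, YALI0_E34749g and YALI0_F30987g, and the superoxide dismutase gene SOD1 (YALI0_E12133g), which are 4 of the 6400 genes in the count tables. They were picked by name, with earlier results of these libraries known, from the comparisons of the mutants with wild type. Both YALI0_E34265g and YALI0_E34749g are annotated by the study as similar to Ctt1, the cytosolic catalase T of *S. cerevisiae*. The names of YALI0_F30987g and SOD1 came with the choice of genes, and no annotation used here bears on them.

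All cells were of the PO1a background, a strain auxotrophic for leucine and uracil, and carried a plasmid with the YlLEU2 gene. They were grown at 30 °C in minimal medium with N-acetylglucosamine (GlcNAc) and added uracil to an OD600 of about 0.8. The groups were Ylngs1Δ cells with the 4NAG plasmid, Ylrep1Δ cells with the 4NAG plasmid, wild-type cells with the 4NAG plasmid and wild-type cells with the empty vector, with 3 libraries in each. The 4NAG plasmid carries the genes for GlcNAc uptake and breakdown (NGT1, NAG5, DAC1 and NAG1) under the actin promoter, and was given so that mutants unable to induce them could grow on GlcNAc. YlRep1 is a transcription factor of the Ndt80 family and YlNgs1 an N-acetyltransferase-like protein, each deleted in 1 strain. The labels do not say whether the replicates came from separate cultures, and the p-values then cover only the spread between these libraries, which may be technical. Library totals lay between 15667204 and 22650213 counts.

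The deleted genes were not absent from every library of their own strain. NGS1 stood at 0.0708%, 22.7% and 47.1% of the mean of wild-type cells with 4NAG in the libraries labelled Ylngs1Δ replicates 1, 2 and 3. REP1 stood at 26.1%, 13.5% and 82.6% of that mean in the libraries labelled Ylrep1Δ. The third library of each mutant therefore held the most transcript of the gene its label says was deleted, and every result below that rests on these libraries is read with that in view. The part these counts play in the values of the catalases and SOD1 was not tested.

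YALI0_E34265g was the most variable of the 4 genes. In CPM, read counts corrected for library size with TMM factors, it stood at 9.47, 6.99 and 31.8 in the 3 Ylngs1Δ libraries. It stood at 14.0, 55.6 and 211.2 CPM in the 3 Ylrep1Δ libraries. Wild-type cells had 338.5, 400.3 and 319.2 CPM with 4NAG and 273.6, 256.8 and 192.4 CPM with the vector. All 6 mutant libraries lay below all 3 libraries of wild-type cells with 4NAG, but the third Ylrep1Δ library lay among the vector libraries. Relative to the mean of wild-type cells with 4NAG, the Ylngs1Δ libraries held 2.68% (95% exact Poisson interval 2.31 to 3.10), 1.98% (1.64 to 2.38) and 9.00% (8.24 to 9.82). The Ylrep1Δ libraries held 3.97% (3.49 to 4.50), 15.8% (14.9 to 16.6) and 59.9% (57.9 to 61.9). These intervals cover counting error of the single library only, and none of the 6 reaches 100%. In bulk RNA, less transcript in every cell and fewer cells with the transcript cannot be told apart. Within each mutant the third library was highest for YALI0_E34265g and also for the deleted gene. The first and second libraries ran the other way in each mutant, the one with less transcript of the deleted gene holding more YALI0_E34265g.

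YALI0_E34749g, the second Ctt1-like gene, varied less. It stood at 209.7, 209.4 and 316.7 CPM in Ylngs1Δ cells and at 255.7, 214.0 and 266.7 CPM in Ylrep1Δ cells, against 543.4, 563.1 and 568.2 CPM in the wild type with 4NAG. Wild-type cells with the vector had 424.6, 420.6 and 421.2 CPM. Every mutant library lay below every wild-type library of either plasmid. The mutant libraries held 37.5% to 56.7% of the mean of wild-type cells with 4NAG in Ylngs1Δ and 38.3% to 47.8% in Ylrep1Δ.

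YALI0_F30987g was the catalase gene whose mutant means lay above wild type. It stood at 516.2, 357.0 and 224.0 CPM in Ylngs1Δ cells and at 350.6, 421.0 and 240.0 CPM in Ylrep1Δ cells. Wild-type cells had 247.7, 209.2 and 234.5 CPM with 4NAG and 220.7, 240.5 and 323.3 CPM with the vector. In each mutant the first and second libraries lay above all 6 wild-type libraries, while the third lay within the range of wild-type cells with 4NAG.

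SOD1 was the most abundant of the 4 transcripts per length. By level it stood at 434.2, 897.1 and 1102.5 CPM in Ylngs1Δ cells and at 918.4, 509.3 and 790.8 CPM in Ylrep1Δ cells. Wild-type cells were tightly grouped, with 1077.2, 1029.3 and 1057.9 CPM with 4NAG and 903.4, 868.1 and 891.1 CPM with the vector. Only the third Ylngs1Δ library reached the levels of wild-type cells with 4NAG. The lowest value of each mutant came from a different replicate number, the first in Ylngs1Δ and the second in Ylrep1Δ. Over 5475 genes those libraries deviated alike from their group means (correlation 0.87), and they also held the highest YALI0_F30987g value of each mutant. Their departure from the other replicates is therefore not particular to SOD1, and its source was not tested.

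**Figure D1:**
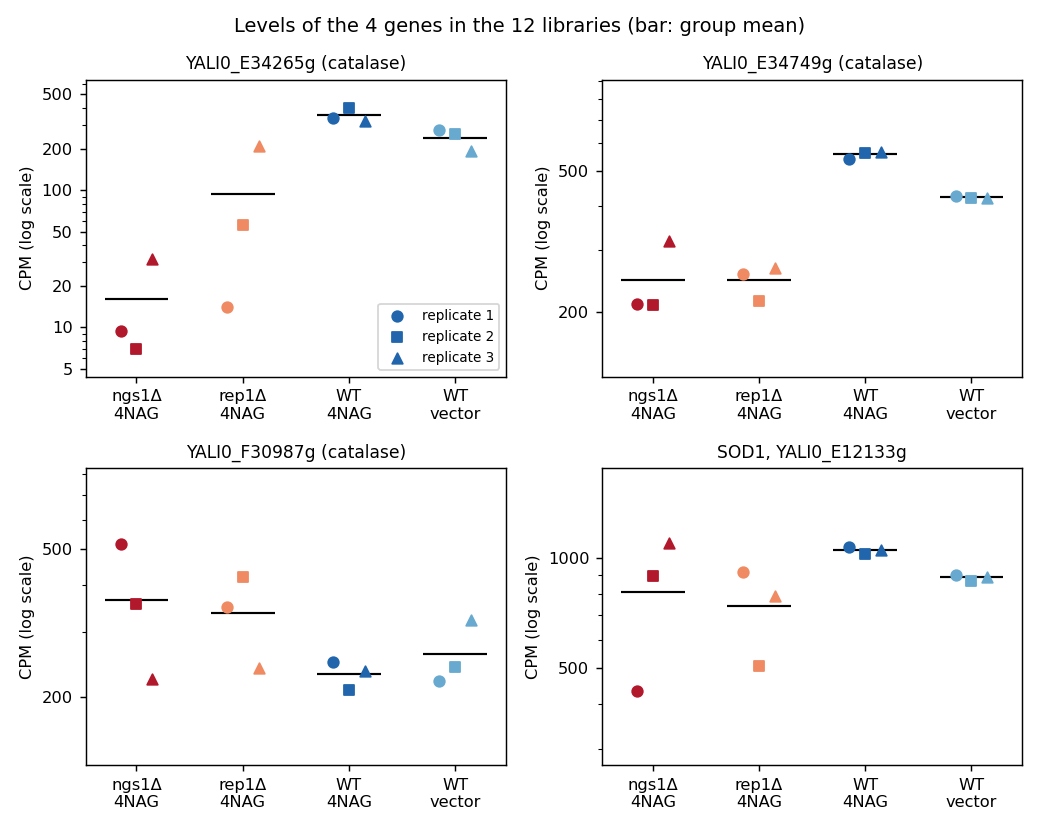
CPM (log axes) of the 3 catalase genes and SOD1 in each of the 12 libraries, with the replicate number as the symbol and a bar at the group mean. YALI0_E34265g ran between 6.99 and 400.3 CPM, whereas YALI0_E34749g was below wild type in all 6 mutant libraries and YALI0_F30987g was above all wild-type libraries in 4 of the 6.

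The spread between replicates was wider in the mutants than in wild type for each gene in this set. For YALI0_E34265g the coefficient of variation was 84.9% in Ylngs1Δ and 111% in Ylrep1Δ, against 12.0% in wild type with 4NAG and 17.8% with the empty vector. For SOD1 it was 42.2% in Ylngs1Δ and 28.3% in Ylrep1Δ, against 2.28% in wild type with 4NAG and 2.02% with the empty vector. YALI0_E34749g was the steadiest catalase gene, at 25.2% in Ylngs1Δ and 11.3% in Ylrep1Δ, against 2.35% with 4NAG and 0.511% with the vector in wild type. YALI0_F30987g came to 40.0% in Ylngs1Δ and 27.1% in Ylrep1Δ, against 8.49% with 4NAG and 20.8% with the vector in wild type. These are descriptions of 3 libraries each, and no test of the spreads was made.

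**Figure D2:**
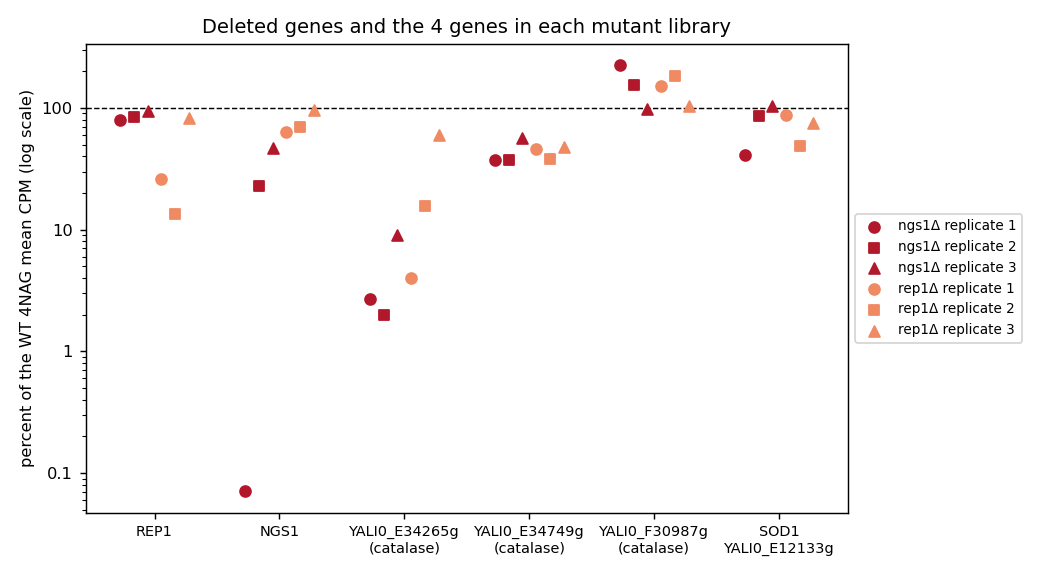
CPM of the deleted genes REP1 and NGS1, the 3 catalase genes and SOD1 in each mutant library, as a percentage of the mean of wild-type cells with 4NAG (log axis, dashed line at 100%). The third library of each mutant was nearest to the line for YALI0_E34265g, at 9.00% in Ylngs1Δ and 59.9% in Ylrep1Δ, and for YALI0_F30987g, at 97.2% and 104%.

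The first question was how these genes differed between the slower-growing Ylngs1Δ cells and wild-type cells, both carrying 4NAG. YALI0_E34265g averaged 16.1 ± 13.6 CPM in Ylngs1Δ cells, against 353 ± 42.3 CPM in the wild type carrying 4NAG (SD, n = 3 each). Its fitted log2 fold change was -4.45 (SE 0.59), a 21.8-fold lower level and the most negative value of 6040 genes tested. YALI0_E34749g averaged 245 ± 61.9 CPM in Ylngs1Δ cells and 558 ± 13.1 CPM in wild-type cells, a log2 fold change of -1.17 (SE 0.19). YALI0_F30987g averaged 366 ± 146 CPM in Ylngs1Δ cells and 230 ± 19.6 CPM in wild-type cells (log2 fold change 0.68, SE 0.28). SOD1 averaged 811 ± 342 CPM in Ylngs1Δ cells and 1055 ± 24.1 CPM in wild-type cells (log2 fold change -0.37, SE 0.31).

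Calls used the study's thresholds, a change of 2-fold or more with an adjusted p below 0.05. The test was edgeR's quasi-likelihood test, whereas the methods of the study name none. By these, 2 of the 4 genes (the Ctt1-like pair) were called lower in Ylngs1Δ, beside 2.3% of all genes tested. The same 2 had all Ylngs1Δ libraries below all wild-type libraries with 4NAG, beside 22.1% of all genes. The genes were chosen with this contrast known, so nothing is read from either count and no p is given. Their median log2 fold change was -0.77, beside 0.016 over all genes tested. Without the third Ylngs1Δ library, the one with the most NGS1 counts, the log2 fold changes were -5.42 for YALI0_E34265g, -1.41 for YALI0_E34749g, 0.92 for YALI0_F30987g and -0.67 for SOD1. That fit called 2 of the 4 genes, beside 385 higher and 232 lower of 6078 genes, more than the 324 higher and 139 lower with all libraries. The value for SOD1 rested on the first Ylngs1Δ library, without which it was -0.07. YALI0_F30987g came to 0.34 without the same library.

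The second question was the same for YlREP1. YALI0_E34749g averaged 245 ± 27.8 CPM in Ylrep1Δ cells, against 558 ± 13.1 CPM in wild-type cells with 4NAG (SD, n = 3 each), a log2 fold change of -1.19 (SE 0.13). YALI0_E34265g averaged 93.6 ± 104 CPM in Ylrep1Δ cells, against 353 ± 42.3 CPM in wild-type cells, and its log2 fold change of -1.92 (SE 0.81) was not called. YALI0_F30987g averaged 337 ± 91.3 CPM in Ylrep1Δ cells, against 230 ± 19.6 CPM in wild-type cells (log2 fold change 0.55, SE 0.21). SOD1 averaged 740 ± 209 CPM in Ylrep1Δ cells, against 1055 ± 24.1 CPM in wild-type cells (log2 fold change -0.51, SE 0.22).

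Here 1 of the 4 genes, YALI0_E34749g, was called lower in Ylrep1Δ, beside 0.331% of all genes tested, and 3 of 4 had all Ylrep1Δ libraries below all wild-type libraries with 4NAG, beside 16.6%. DESeq2 also called 1 of the 4, beside 85 of 6041 genes called lower. The study reported more changed genes in each mutant than edgeR called here. These counts too are from a contrast known when the genes were chosen, and both mutant comparisons share the same wild-type libraries. The median log2 fold change of the 4 genes was -0.85, beside 0.011 over the 6041 genes tested. The third Ylrep1Δ library decided the value for YALI0_E34265g, which was -3.33 without it and then called, in a fit that called 163 of 6077 genes lower, against 20 of 6041 with all libraries. Without the same library, the one with the most REP1 counts, YALI0_E34749g came to -1.25, YALI0_F30987g to 0.74 and SOD1 to -0.56. The call of YALI0_E34749g was lost when any 1 of the 3 libraries of wild-type cells with 4NAG was left out, fits in which 1 gene in all was called, while its log2 fold change stayed between -1.25 and -1.09 over all libraries left out in turn.

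**Figure D3:**
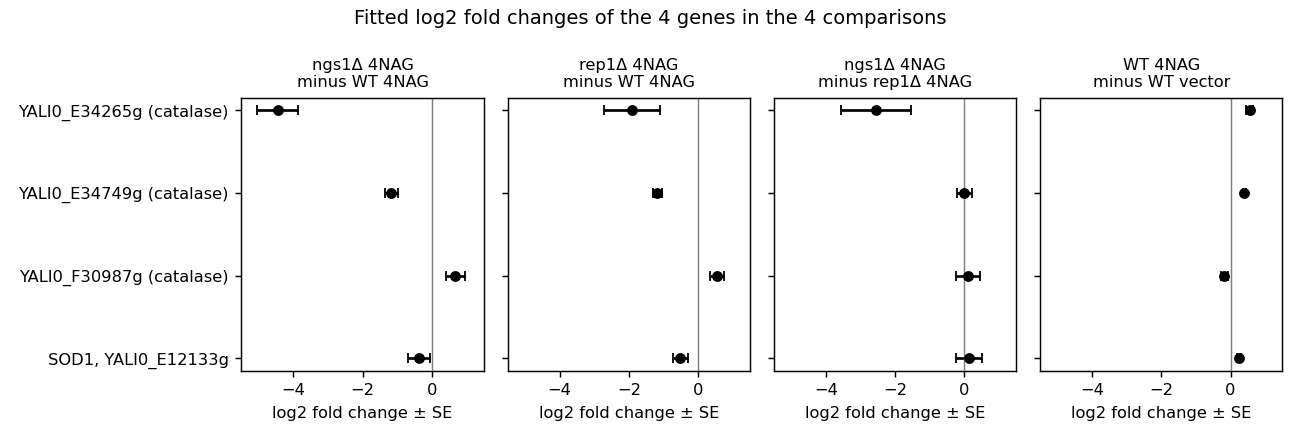
Fitted log2 fold changes of the 4 genes with their standard errors, in a panel for each comparison, the group named first minus the group named second. The 2 mutant comparisons with wild type run the same way for each of the 4 genes and share their wild-type libraries.

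Between the mutants, which asks whether the loss of YlNGS1 and of YlREP1 left these genes at different levels, none of the 4 genes was called, beside 0% of 6016 genes tested. Over all of those genes 71 had an unadjusted p under 0.05, and DESeq2 called 0 with 91 at that level. Each number is below what that threshold would pass if no gene differed, so the lack of calls carries little weight. The contrast was not the basis of the choice of genes, but its libraries are those the choice used. YALI0_E34265g averaged 16.1 ± 13.6 CPM in Ylngs1Δ cells and 93.6 ± 104 CPM in Ylrep1Δ cells (SD, n = 3 each), and the ranges overlapped, as they did for each of the 4 genes, beside 5.62% of all genes whose groups lay apart in either direction. Its log2 fold change was -2.55 (SE 1.01, 95% interval -4.94 to -0.15, edgeR adjusted p = 1.00), the most negative of the 6016, and the third Ylrep1Δ library carried much of it, since the value was -1.13 without that library and -2.08 without the third library of both mutants. YALI0_E34749g differed by a log2 fold change of -0.0040 between the mutants, with a 95% interval of -0.51 to 0.51. The interval was -0.70 to 0.94 for YALI0_F30987g, at 0.12, and -0.76 to 1.02 for SOD1, at 0.13. Changes as large as 2-fold were therefore within the interval of SOD1. They lay outside that of YALI0_E34749g and, narrowly, that of YALI0_F30987g, whose SE rose from 0.35 to 0.42 without the second Ylngs1Δ library. Mutant libraries also held transcript of the deleted genes, so these intervals do not bound the effect of losing either gene. A p that misses the threshold does not show equal levels.

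The last comparison was of the plasmids in wild-type cells, where YlREP1 and YlNGS1 are intact. It asks how these genes differ when plasmid copies of the GlcNAc genes are added under the actin promoter. The study shows that wild-type cells on GlcNAc already induce their own copies. The Ctt1-like pair and SOD1 were higher with 4NAG, in the same libraries that the mutants were compared with. The choice of genes used those libraries as the reference, which can favour genes high in them. The p-values below are therefore not independent of the choice. YALI0_E34265g averaged 353 ± 42.3 CPM with 4NAG and 241 ± 42.8 CPM with the vector (SD, n = 3 each), a log2 fold change of 0.55 (SE 0.10, 95% interval 0.33 to 0.77, edgeR adjusted p = 0.00334). YALI0_E34749g averaged 558 ± 13.1 CPM with 4NAG and 422 ± 2.16 CPM with the vector, a log2 fold change of 0.40 (SE 0.05, 95% interval 0.30 to 0.51, edgeR adjusted p = 9.24e-05). SOD1 averaged 1055 ± 24.1 CPM with 4NAG and 888 ± 17.9 CPM with the vector, a log2 fold change of 0.25 (SE 0.05, 95% interval 0.15 to 0.35, edgeR adjusted p = 0.00387). For each of the 3 genes, higher in 3 of 3 libraries, the libraries with 4NAG all lay above those with the vector.

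None of these changes reached 2-fold, so 0 of the 4 genes were called by the study's thresholds, beside 0.182% of 6043 genes tested. At an adjusted p under 0.05 with any fold, 3 of 4 were higher with 4NAG, beside 6.24% of all genes, and 3 of 4 had all 4NAG libraries above all vector libraries, beside 15.4%. Because the 4NAG libraries were the reference in the contrasts behind the choice, nothing is read from these counts. The median log2 fold change of the 4 genes was 0.33, beside -0.00016 over all genes tested. YALI0_F30987g averaged 230 ± 19.6 CPM with 4NAG and 262 ± 54.4 CPM with the vector (log2 fold change -0.18, SE 0.11, 95% interval -0.41 to 0.04, edgeR adjusted p = 0.304). That value came from the third vector library, and it was -0.0011 without it. The 3 differences kept an adjusted p under 0.05 when any single library was left out, but not in a fit of all 12 libraries together, where the spread of the mutants enters and the edgeR adjusted p was 1.00 for each of the 3 genes at log2 fold changes of 0.55, 0.40 and 0.25.

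Levels of different genes can be set beside each other only per length, for which the deposited FPKM values were used. These lack the TMM correction of the CPM values, whose factors ran from 0.916 to 1.105 over the libraries. Sums of different libraries carry that difference, while shares and ratios within a library do not. The summed FPKM of the 3 catalase genes was 528.6, 358.3 and 338.3 in Ylngs1Δ cells and 380.9, 500.9 and 474.4 in Ylrep1Δ cells. In wild-type cells it was 711.0, 733.4 and 705.4 with 4NAG and 598.2, 589.0 and 602.8 with the vector. The mutant means were 408 ± 105 in Ylngs1Δ and 452 ± 63.0 in Ylrep1Δ, against 717 ± 14.8 in wild type with 4NAG and 597 ± 7.04 with the empty vector (SD, n = 3 each). All 6 mutant libraries lay below all 6 wild-type libraries, a description that rests on the contrasts used in the choice.

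The shares of the catalase genes within this sum differed too. YALI0_E34265g made up 1.22%, 1.16% and 5.38% of the catalase FPKM in Ylngs1Δ cells and 2.16%, 7.67% and 28.6% in Ylrep1Δ cells. It made up 28.0% to 33.6% in wild-type cells with 4NAG and 29.2%, 27.4% and 19.98% in wild-type cells with the vector. The third Ylrep1Δ library was therefore the only mutant library within the wild-type range of this share. YALI0_F30987g made up 71.8%, 64.1% and 41.0% in Ylngs1Δ cells and 58.4%, 62.8% and 35.2% in Ylrep1Δ cells, against 19.0% to 23.3% in wild type with 4NAG and 25.5% to 36.3% with the empty vector. It was the most abundant catalase transcript in the first and second library of each mutant, and YALI0_E34749g was the most abundant in the other 8 libraries.

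**Figure D4:**
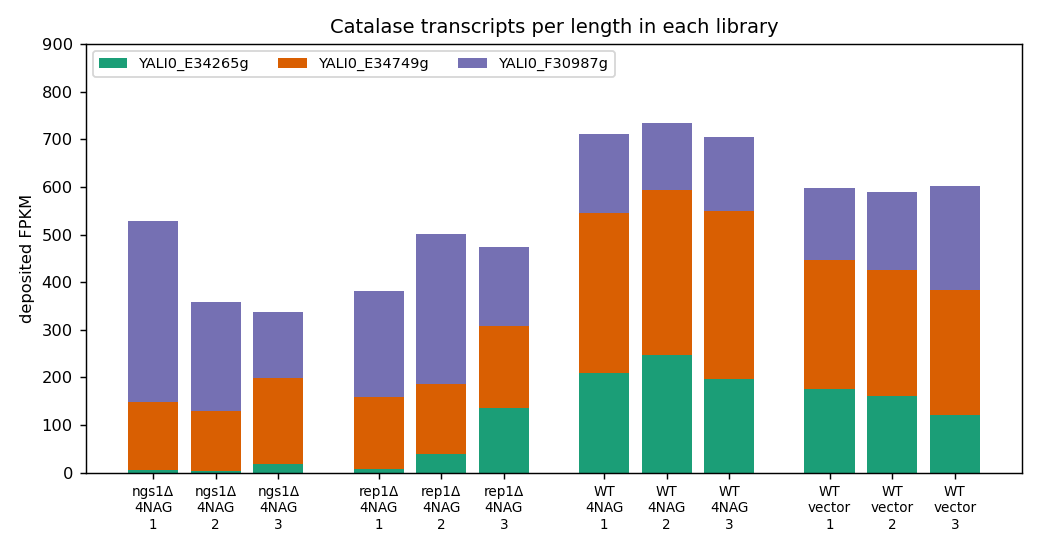
Deposited FPKM of the 3 catalase genes, stacked, in each of the 12 libraries. The sums were 338.3 to 528.6 in the mutants and 589.0 to 733.4 in wild type, and YALI0_F30987g was the largest segment in the first and second library of each mutant.

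SOD1 FPKM exceeded the summed catalase FPKM in all 12 libraries. The ratio of SOD1 to summed catalase was 1.92, 5.12 and 6.42 in Ylngs1Δ cells and 4.87, 2.42 and 3.69 in Ylrep1Δ cells, against 2.98 to 3.22 in wild type with 4NAG and 3.18 to 3.32 with the empty vector. In each mutant the ratio lay on both sides of the wild-type values.

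The study's supplementary lists name 3 other genes of antioxidant function, and since those lists hold genes that changed in these libraries, the values are not independent evidence of a direction. A Sod2-like gene, YALI0_C16621g, which in *S. cerevisiae* encodes the mitochondrial superoxide dismutase, was at a low level of 0.621 ± 0.140 CPM in Ylngs1Δ cells and 0.719 ± 0.307 CPM in Ylrep1Δ cells, against 3.71 ± 1.26 CPM in wild-type cells with 4NAG and 3.13 ± 1.06 CPM with the vector. Its log2 fold change from wild-type cells with 4NAG was -2.56 (SE 0.37) in Ylngs1Δ and -2.37 (SE 0.42) in Ylrep1Δ, and edgeR called it lower in both. In Ylrep1Δ the call was lost with limma, without the second Ylrep1Δ library and without any 1 of the wild-type libraries with 4NAG. The gene had 9, 11 and 12 counts in the Ylngs1Δ libraries, and the exact Poisson interval of the first, 5.74% to 23.8% of the mean of the wild type with 4NAG, held the values of all 3 (12.6%, 17.7% and 19.9%). A Dot5-like gene, YALI0_E19448g, similar to a nuclear thiol peroxidase of *S. cerevisiae*, averaged 48.3 ± 8.41 CPM in Ylngs1Δ cells and 69.1 ± 22.4 CPM in Ylrep1Δ cells, against 105 ± 6.02 CPM in wild-type cells with 4NAG. It was called lower in Ylngs1Δ alone, at -1.11 (SE 0.15) against -0.60 (SE 0.22) in Ylrep1Δ, and the difference between the mutants was not called. Without the first Ylngs1Δ library the value was -0.98, under 2-fold and no longer called. A Trx1-like gene, YALI0_E09427g, similar to a cytosolic thioredoxin, was also at a low level, 1.64 ± 0.305 CPM in Ylngs1Δ and 0.991 ± 0.177 CPM in Ylrep1Δ. Wild-type cells averaged 2.86 ± 0.507 CPM with 4NAG and 1.51 ± 0.285 CPM with the vector, so the vector mean lay below that of Ylngs1Δ. Against wild-type cells with 4NAG its log2 fold change was -0.79 (SE 0.27) in Ylngs1Δ and -1.53 (SE 0.31) in Ylrep1Δ, called in neither by edgeR. Between the plasmids the gene was higher with 4NAG, at 0.93 (SE 0.29, edgeR adjusted p = 0.0491), under 2-fold. That difference did not hold its threshold: the edgeR adjusted p was 0.0565 to 0.194 with single libraries left out. In Ylrep1Δ the Trx1-like gene was called with DESeq2, in the fit of all 12 libraries, and without the first or the third Ylrep1Δ library. In all, edgeR called 2 of these 3 genes lower in Ylngs1Δ, beside 2.3% of all genes, and 1 of 3 in Ylrep1Δ, beside 0.331%, where DESeq2 called 2 and limma 0, and none was called between the mutants or between the plasmids.

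Genes with the most similar pattern were found by the root mean square difference of log2(CPM + 1) over the 12 libraries, each gene centred on its own mean, among 5475 genes with a mean of at least 5 CPM. The libraries share their groups, so a small difference is a description of pattern only. YALI0_E34265g, whose own root mean square about its mean was 2.05, was closest to YALI0_F29975g, annotated as similar to the 3-oxoacyl-carrier-protein reductase Oar1, at a difference of 0.39. That gene averaged 4.59 CPM in Ylngs1Δ cells and 20.9 CPM in Ylrep1Δ cells, against 85.4 CPM in wild-type cells with 4NAG and 57.7 CPM with the vector. After it came YALI0_D10131g (PDC1, pyruvate decarboxylase) at 0.78, YALI0_D15400g (BIO2, biotin synthase) at 0.90, YALI0_E24167g (SSU1, a sulfite exporter) at 0.92 and YALI0_F01606g, similar to the dihydroxyacetone kinase DAK1 of *Schizosaccharomyces pombe*, at 0.95.

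The other genes, whose own patterns were flatter, had nearer neighbours. YALI0_E34749g, with a root mean square of 0.54 about its mean, was closest to the amidase-like YALI0_D22110g at 0.14, then to YALI0_E12463g at 0.16 and YALI0_B21098g at 0.18. YALI0_F30987g, at 0.40, was closest to YALI0_E02728g, YALI0_A14784g and YALI0_D11374g, each at 0.14. SOD1, also at 0.40, was closest to YALI0_E33253g at 0.088, YALI0_D10791g at 0.097 and YALI0_D16467g at 0.10.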

How the data were processed

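RNA-Seq counts of 12 libraries in 4 groups were analysed. The authors deposited whole-number read counts per gene and FPKM values, which the authors normalized for length and depth. The submitters' processing notes list Cufflinks 2.2.1 beside TopHat2 2.1.1 and name a mouse build, although the gene IDs are of *Y. lipolytica*. The counting program is not stated in these sources, so how reads shared by similar catalase genes were assigned is unknown. Of the 6400 genes, 24 were not in every table and were taken as 0 there. Library totals were 15667204 to 22650213 counts. Genes with few counts, such as the Sod2-like and Trx1-like genes, are limited by counting error.

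Groups and replicate numbers were taken from the labels. Comparisons of 3 against 3 were fitted over all genes by the quasi-likelihood test of edgeR 4.0.16 after filterByExpr and TMM, with Benjamini-Hochberg adjustment (R 4.3.3), and calls needed an adjusted p under 0.05 and at least 2-fold change. CPM values used TMM factors over all 12 libraries. The SE is the absolute log2 fold change divided by the square root of F. The script was tested on simulated data. Replicates of a group differed by more than counting noise (chi-square per degree of freedom 7.37 or higher), so none was a duplicate.

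Same-numbered libraries of the wild type with 4NAG and the wild type with the vector deviated together only weakly (correlations 0.11 to 0.17 over 5475 genes). Different-numbered libraries of these groups gave -0.14 to 0.03. Only this comparison met a rule of every same-number correlation over 0.1, which rests on the data and not on the labels. Among the mutants, different-numbered libraries reached 0.87 (Ylngs1Δ replicate 1 with Ylrep1Δ replicate 2), so the rule does not establish pairing. The main fits of all comparisons were unpaired, and the replicate block was an alternative only.

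Alternatives were DESeq2 1.42.0, its size factors, no or a stricter filter (mean count of 10), a joint fit of all 12 libraries, a replicate block, limma 3.58.1 with quality weights, calls without a fold threshold or on an unadjusted p, and each replicate left out. The genes and lists were chosen with earlier results of these data known. Named genes were the 4 described, the deleted genes, the antioxidant genes of the study's supplementary lists and the genes nearest in pattern. The reference table used here matched no gene ID of the files. Figures were drawn in Python 3.11.15.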

Additional observations from a re-analysis of the deposited data

How the results depend on the processing

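Over 20 results, 278 alternative values were computed, of which 251 kept their direction and their side of the threshold or stayed within the spread between replicates. That spread was wide in the mutants, so YALI0_E34265g in Ylrep1Δ counted as kept at -2.68 with the replicate block, against -1.92. Between the mutants no alternative brought an adjusted p of the 4 genes under 0.05. The 251 are therefore a loose count and no measure of robustness. In Ylngs1Δ against wild-type cells with 4NAG, the log2 fold change of YALI0_E34265g was -5.38 with limma and -5.42 to -4.09 with single libraries left out. With the first Ylngs1Δ library alone, a choice made after seeing the data, YALI0_F30987g came to 1.18 and SOD1 to -1.27; all spread then comes from the wild-type libraries, which vary less than the mutants, so the 4 genes called, beside 580 higher and 498 lower of 6137 genes, have no replicate check. In Ylrep1Δ against wild type, 2 genes were called with limma, beside 213 of 6041 genes, and with an unadjusted p, beside 354, and 0 to 2 with single libraries left out, beside 1 to 432 genes, where YALI0_E34265g ranged from -3.33 to -1.41. Between the mutants, 1 gene passed at an unadjusted p, beside 28 of 6016 genes. There the values near 0 changed sign: with single libraries left out YALI0_E34749g ranged from -0.24 to 0.095, YALI0_F30987g from -0.22 to 0.36 and SOD1 from -0.16 to 0.43, limma gave -0.025 for YALI0_F30987g, and leaving out the third library of both mutants, also added after seeing the data, gave -0.10 for SOD1. Between the plasmids, 3 genes passed without the fold threshold, and the fit of all 12 libraries gave 0.55 for YALI0_E34265g, 0.40 for YALI0_E34749g and 0.25 for SOD1, no longer past an adjusted p of 0.05.

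With the replicate block, YALI0_E34265g came to -4.75 in Ylngs1Δ and -2.68 in Ylrep1Δ against wild type, -2.14 between the mutants and 0.56 between the plasmids. The block changed no call of the 4 genes.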
